A study of Mus musculus with 2 samples.

Results

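The genes described here encode the ZFP36 and BTG/TOB proteins, both of which shorten the life of mRNAs. The list names 8 of them (Zfp36, Zfp36l1, Zfp36l2, Btg1, Btg2, Btg3, Tob1 and Tob2). They were chosen by gene family, with earlier results of these arrays in view, and for each gene the probe set was selected on the highest mean of both arrays. Of the 8, 7 had a probe set annotated with that gene alone, out of 19935 genes measured in all, and each of the 7 had 1 such probe set. Btg3 had none of its own, since the 2 probe sets annotated with it also carry Gm7334, and no value is given for it.

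The study asked how imatinib-treated mouse Ba/F3 cells bound for survival differ in gene expression from those bound for death. Ba/F3 is a pro-B-like line that needs interleukin-3 (IL-3) to live, unless an active kinase such as BCR-ABL replaces the cytokine. Cells of both conditions constitutively expressed BCR-ABL, were grown in 10% serum and received 5 µM imatinib, an ABL kinase inhibitor, for 6 h. 1 array held RNA of cells grown with IL-3 (titled Live-IL3) and the other that of cells grown without it (titled Live-NoIL-3). No array without imatinib and no parental cells without BCR-ABL were analysed here, and the labels do not say whether the line is a clone. The titles give the groups, although the description of the Live-IL3 array also reads as no IL-3. If the labels were swapped, every difference below would change sign.

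ZFP36 proteins carry a pair of zinc fingers that bind AU-rich elements in the 3′ untranslated regions of short-lived mRNAs, such as those of cytokines and early response genes. They recruit the CCR4-NOT complex, which removes the poly(A) tail, after which decapping enzymes, the XRN1 exonuclease and the exosome degrade the message. BTG and TOB proteins bind the CNOT7 and CNOT8 deadenylase subunits of the same complex directly, and slow cell growth when overexpressed. In mice, ZFP36L1 and ZFP36L2 are needed for developing B cells to pass through a quiescent stage, and BTG1 and BTG2 are linked to lymphocyte development and quiescence.

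The promoters of Zfp36, Btg1 and Btg2 are printed because these members were lower with IL-3 by 2-fold or more, and that of Tob2 because it was the member nearest to no difference. Each window runs 5′ to 3′ from 250 bases before to 50 bases after the annotated start (RefSeq, GRCm38.p6), and capitals mark matches to the motifs named below.
Zfp36 (chr7:28379179-28379478, minus strand): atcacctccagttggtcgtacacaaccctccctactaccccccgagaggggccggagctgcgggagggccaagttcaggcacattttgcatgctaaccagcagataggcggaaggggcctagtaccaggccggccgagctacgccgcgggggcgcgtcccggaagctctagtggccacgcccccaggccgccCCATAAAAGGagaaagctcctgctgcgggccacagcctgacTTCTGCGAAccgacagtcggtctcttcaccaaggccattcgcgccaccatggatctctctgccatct
Btg1 (chr10:96616751-96617050, plus strand): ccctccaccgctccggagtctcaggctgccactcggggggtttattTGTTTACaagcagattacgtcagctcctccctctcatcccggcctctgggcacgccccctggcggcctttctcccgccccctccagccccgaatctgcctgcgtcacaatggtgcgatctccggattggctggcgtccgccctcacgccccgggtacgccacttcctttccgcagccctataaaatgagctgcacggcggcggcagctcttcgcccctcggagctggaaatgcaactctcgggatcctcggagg
Btg2 (chr1:134079106-134079405, minus strand): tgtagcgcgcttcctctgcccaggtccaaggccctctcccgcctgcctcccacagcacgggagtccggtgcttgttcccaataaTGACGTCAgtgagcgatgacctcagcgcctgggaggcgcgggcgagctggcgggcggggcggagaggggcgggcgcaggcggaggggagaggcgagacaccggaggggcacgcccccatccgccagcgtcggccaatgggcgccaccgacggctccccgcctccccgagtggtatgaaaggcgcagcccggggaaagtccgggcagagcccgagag
Tob2 (chr15:81858277-81858576, minus strand): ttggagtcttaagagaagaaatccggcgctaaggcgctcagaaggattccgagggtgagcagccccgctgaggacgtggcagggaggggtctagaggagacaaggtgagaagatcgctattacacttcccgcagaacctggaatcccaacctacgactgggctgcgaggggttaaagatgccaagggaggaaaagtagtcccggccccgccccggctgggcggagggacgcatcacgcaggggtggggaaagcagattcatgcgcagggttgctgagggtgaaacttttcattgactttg

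The 5 motifs searched on both strands were the AP-1 site TGANTCA, the cAMP response element TGACGTCA, the STAT5-type site TTCNNNGAA, the forkhead site GTAAACA and the CArG box bound by serum response factor. The Zfp36 window held a CArG box from -58 to -49 and a STAT5-type site from -17 to -9 relative to the annotated start. Over all 32851 promoter windows of this length, 1.63% held a CArG box and 8.3% a STAT5-type site. The Btg2 window held a cAMP response element from -166 to -159, a motif found in 1.79% of all windows. The Btg1 window held a forkhead site on the minus strand of the window from -204 to -198, against 3.65% of all windows. The matches did not overlap each other. Among the other members, the Zfp36l1 window held an AP-1 site from -129 to -123 (7.81% of all windows), whereas the windows of Tob1, Tob2 and Btg3 held no match. The 3 genes at least 2-fold lower with IL-3 shared none of the 5 motifs within these windows. Each motif was found in 8.3% of all windows or fewer, so few sets of 3 genes would share one. The GC content was 63.7% for Zfp36, 64.7% for Btg1 and 72.0% for Btg2. It was 75.3% for Tob1, 58.0% for Tob2 and 52.0% for Zfp36l1, and 57.7% and 75.7% for the 2 windows of Btg3, against a median of 52.7% over all windows. A match describes the letters and was not tested as a binding site.

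**Figure D1:**
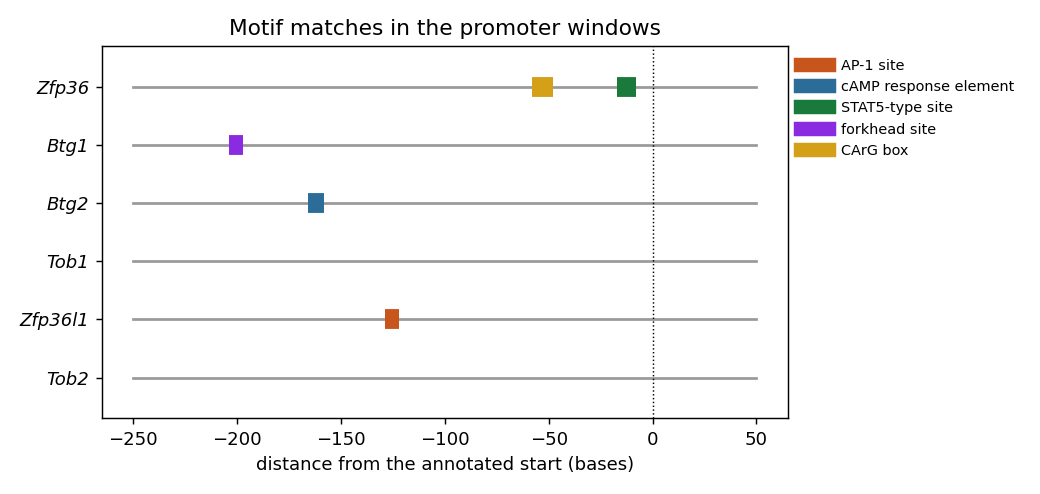
Each grey line is the promoter window of 1 gene, drawn by distance in bases from the annotated start, and coloured blocks mark the motif matches to scale. Zfp36 has 2 matches, Btg1, Btg2 and Zfp36l1 have 1 each, and Tob1 and Tob2 have 0.

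All 7 measured genes had a lower value with IL-3 than without it. Zfp36, Btg1 and Btg2 were at least 2-fold lower, Tob1 was 1.41-fold lower, and Zfp36l1, Zfp36l2 and Tob2 were lower by 1.24-fold or less. The values are the authors' log values, taken as log2 because no base is given. Each was taken as relative to a baseline of its probe set, so the values give no expression level and levels of different genes cannot be compared. Each difference is the value with IL-3 minus that without, on the log2 scale, and a gene was counted when its difference reached 1 in size (2-fold). With 1 array per group there was no replicate and no test. Fewer cells of a type and less RNA per cell cannot be told apart in such bulk RNA.

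Of the 7 genes, 3 were lower with IL-3 by 2-fold or more, against 0.657% of all genes, and 0 were higher by that much, against 0.441% of all genes. All 7 differences were below 0, as were 40.1% of those of all genes. The median difference was -0.50 for the 7 genes and 0.04 over all genes. Since the genes were chosen with these values known, the counts are a description and no test was made. The balance of counted genes depends on the scaling: 131 genes were lower and 88 higher as deposited, 161 and 62 after quantile normalization, 205 and 29 after a loess trend was subtracted, and 375 and 419 when natural logs are assumed. The 7 genes were below 0 in every one of these settings, although natural logs cannot change a sign.

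Zfp36 encodes tristetraprolin, the founding member of its family, whose own mRNA is induced within minutes by growth factors and stress. Its value was -0.04 with IL-3, against 1.28 without IL-3 (probe set 10561453). It lay near its baseline with IL-3 and well above it without. The difference was -1.32, which is 2.50-fold lower with IL-3 and the 58th lowest of the 19935 genes. Its paralogue Zfp36l1 had 0.10 with IL-3, against 0.41 without IL-3, a difference of -0.31. Zfp36l2 had 0.03 with IL-3, against 0.27 without IL-3, a difference of -0.24. Both paralogues were thus lower with IL-3 in the same direction as Zfp36, and by a much smaller amount. With IL-3, the values of the 3 ZFP36 genes lay within 0.14 of each other, relative to their own baselines, and without IL-3 they spread over 1.01. The wider spread came from Zfp36, since its paralogues had 0.41 and 0.27 without IL-3. Values close to each other do not mean like levels of these genes.

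Btg1 encodes an antiproliferative protein that also binds the arginine methyltransferase PRMT1. Its value was 0.06 with IL-3, against 1.20 without IL-3 (probe set 10365971). Like Zfp36, it lay near its baseline with IL-3 and above it without. The difference was -1.14, or 2.21-fold lower with IL-3, the 85th lowest of all genes. Btg2, an early response gene and a p53 target also known as Tis21, had -0.65 with IL-3, against 0.38 without IL-3 (probe set 10357875). With IL-3 it lay further below its baseline than any other member. The difference was -1.02, or 2.03-fold lower with IL-3, the 127th lowest of all genes. This was just past the 2-fold limit, and after quantile normalization the difference was -0.99, which is not.

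Tob1, whose protein joins the deadenylase to the poly(A)-binding protein PABPC1, had 0.22 with IL-3, against 0.72 without IL-3. Its value was above the baseline on both arrays, and more so without IL-3. The difference was -0.50, the 754th lowest of all genes. Tob2, its closest relative, had -0.05 with IL-3, against 0.02 without IL-3. Its values lay next to the baseline on both arrays, with a difference of -0.07.

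**Figure D2:**
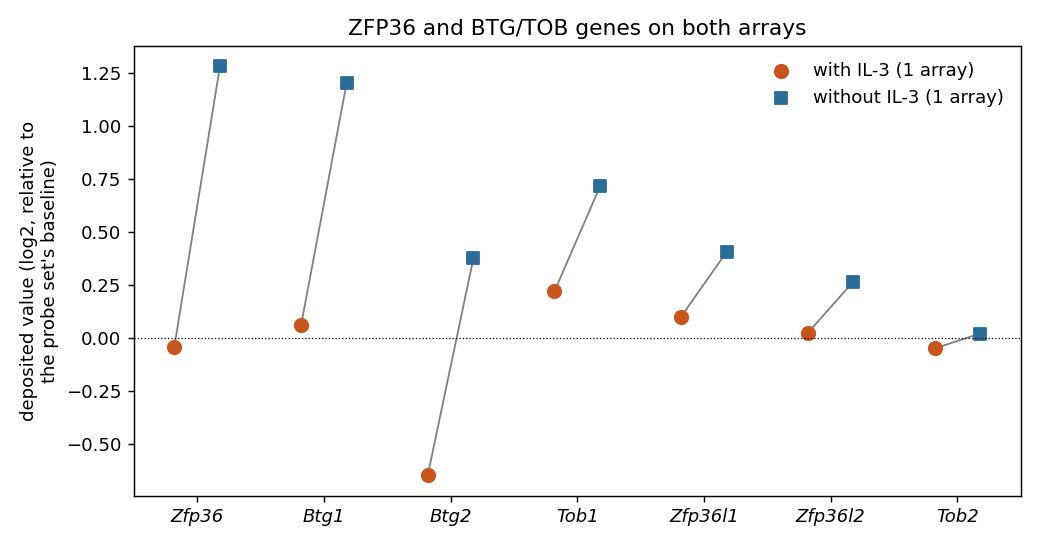
The deposited value of each gene (log2, relative to its probe set's baseline) is shown for the array with IL-3 (orange circle) and the array without IL-3 (blue square), 1 array each, with genes ordered by their difference. All 7 lines rise to the right, and Zfp36 and Btg1 lie at -0.04 and 0.06 with IL-3, against 1.28 and 1.20 without IL-3.

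The array with IL-3 had values above 0 for 4 of the 7 genes, whereas the array without IL-3 had values above 0 for all 7. Over all genes, the share above 0 was 45.3% with IL-3, against 43.4% without IL-3. The share that was lower with IL-3 and also above 0 without it was 23.0%. The values of the 7 genes ran from -0.65 to 0.22 with IL-3, and from 0.02 to 1.28 without IL-3. Each gene has its own baseline, so these ranges do not compare the arrays, and no sum or mean of levels can be formed.

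The order of the differences was Zfp36, Btg1, Btg2, Tob1, Zfp36l1, Zfp36l2 and Tob2. Probe sets naming the same gene differed from each other with a pooled SD of 0.14 (998 genes), which gives 0.20 for the gap between a pair of genes. The only neighbours in this order with a gap above 0.20 were Btg2 and Tob1, at 0.53. The gaps between the other neighbours ran from 0.06 to 0.19, so their order was not resolved. Error between cultures is not part of this SD, so the full error may be larger. The SD also pools genes of all means, and its size among genes of high mean, such as Tob1, is not given here.

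The scatter of differences depended on the mean value of a gene. Zfp36, Btg1 and Tob1 lay among the 25% of genes with the highest means, where the robust spread (scaled median absolute deviation) of all differences was 0.42. Btg2 lay between the 25th percentile and the median of all means, where the spread was 0.10, and Zfp36l1, Zfp36l2 and Tob2 between the median and the 75th percentile, where it was 0.18. Counted in such spreads, the difference of Btg2 stood further from the bulk of genes of like mean than that of Btg1. It was not larger in size than that of Btg1. Means are relative to each probe set's baseline, so genes of like mean need not have like signal. The larger number of spreads therefore does not make Btg2 the more unusual change. The differences of Tob1, Zfp36l1, Zfp36l2 and Tob2 were within 2 such spreads of the median of genes of like mean.

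**Figure D3:**
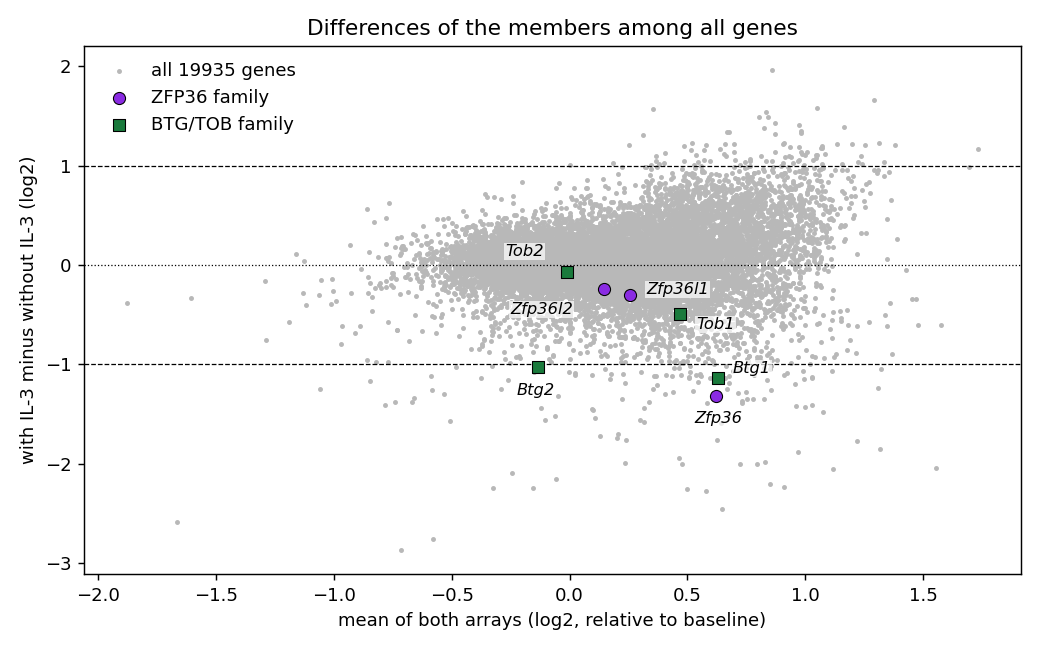
The difference with IL-3 minus without IL-3 (log2) is plotted against the mean of both arrays for all 19935 genes (grey), the ZFP36 family (purple circles) and the BTG/TOB family (green squares). Dashed lines mark 2-fold: Zfp36 (-1.32), Btg1 (-1.14) and Btg2 (-1.02) lie below the lower one.

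Likeness to Zfp36 and Btg2 was measured as the distance between pairs of deposited values over the 2 arrays. The genes nearest to Zfp36 were Tcp11l2 at 0.07, C1s1 at 0.08 and Zbtb20 at 0.13. Btg1 came next, the 4th nearest gene, also at 0.13 and named after its place was seen. The other members lay much further away: Tob1 was 391st, Zfp36l1 1585th, Zfp36l2 2808th, Btg2 3714th and Tob2 6588th from Zfp36. The genes nearest to Btg2 were Ypel3 at 0.03, Adam8 at 0.04 and Ankrd44 at 0.09. From Btg2, the nearest member was Zfp36l2 in 2569th place, and Btg1 and Zfp36 were 15790th and 15811th. Ypel3, a gene linked to growth arrest, had -0.65 with IL-3, against 0.41 without IL-3. Each value is relative to its own probe set's baseline, so this distance mixes offsets from the baselines with the difference between arrays. Btg1 and Btg2 were thus far apart by it, although their differences were -1.14 and -1.02. A place in this order therefore does not measure likeness of the differences, and it rests on 2 arrays alone.

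Of the relatives of these genes outside the list, Zfp36l3, an X-linked ZFP36 gene of rodents, had 0.06 with IL-3, against -0.30 without IL-3. Its difference of 0.36 was opposite in sign to those of the 7 genes and larger in size than those of Zfp36l1, Zfp36l2 and Tob2. Btg4, known from oocytes, differed by 0.10, and the X-linked Btg1 copies Btg1b and Btg1c by 0.04 and 0.02. They were added after the annotation had been read. How far the Btg1 probe set also binds RNA of its copies is not given in the sources used here.

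The machinery that these proteins recruit was mostly within 2-fold, as were nearly all genes. Over all genes, 0.657% were lower with IL-3 by 2-fold or more and 0.441% higher. In the CCR4-NOT complex all 11 genes were measured, with a median difference of 0.18 and 7 above 0, against 59.8% of all genes. The lowest were Cnot6l, a catalytic subunit, at -0.23 and the ubiquitin ligase subunit Cnot4 at -0.22, and the highest were Cnot10 at 0.45 and the scaffold-binding subunit Cnot9 at 0.96. Cnot9 had 1.66 with IL-3, against 0.70 without IL-3, and passed 2-fold when natural logs are assumed. The median of this list was 0.02 after quantile normalization and -0.08 after the loess trend was subtracted, so its direction is not settled. Of the partners of BTG and TOB proteins, 4 of 5 were measured, with Cnot8 at -0.08, Pabpc1 at -0.02, Cnot7 at 0.18 and the methyltransferase gene Prmt1 at 0.64. Their median was 0.08, and -0.01 and -0.06 under those scalings.

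Of the exosome genes and their SKI cofactors, 12 of 13 measured genes were above 0, as were 59.8% of all genes, and the median was 0.38, against 0.04 over all genes and 0.11 over the 25% of genes with the highest means. Exosc8, a core subunit, had 1.48 with IL-3, against 0.39 without IL-3. It was 2.13-fold higher, the single gene of the list past 2-fold, against 0.441% of all genes higher by that much. The SKI genes Wdr61 and Skiv2l differed by 0.57 and -0.03, and Exosc4 by 0.12. With the loess trend subtracted the median was 0.27 with 10 of 13 genes above 0, and 0 genes passed 2-fold. In the decapping and 5′ decay list (11 of 11 measured, median -0.07), Xrn1, the 5′ exonuclease, differed by -0.41, the decapping enzyme gene Dcp2 by -0.25, the scavenger decapping gene Dcps by 0.38 and Lsm1 by 0.45. In the list of PAN nuclease and poly(A)-binding genes (6 of 7 measured, median -0.04), Paip2, an inhibitor of poly(A)-binding protein, differed by -0.43, Pan3 by -0.42, Parn by -0.02 and Paip1 by 0.17. Neither list had a gene past 2-fold, against 0.657% of all genes lower and 0.441% higher by that much.

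Other proteins that set mRNA stability went both ways, with a median of -0.16. Above 0 were 4 of 13 measured genes, against 59.8% of all genes. Cpeb2, a cytoplasmic polyadenylation element-binding protein, had -0.19 with IL-3, against 0.74 without IL-3, a difference of -0.93. It passed 2-fold after quantile normalization and when natural logs are assumed, but not after median centring or with the loess trend subtracted. Zc3h12a, which encodes the endonuclease Regnase-1, differed by -0.45. Khsrp and Hnrnpd, whose proteins bind AU-rich elements, differed by 0.50 and 0.35. Among the kinases, phosphatase subunits and 14-3-3 proteins that act on ZFP36 proteins (10 of 10 measured, median 0.07), 0 passed 2-fold. Over all genes, 0.657% were lower and 0.441% higher by that much. Mapkapk3, a kinase downstream of p38, differed by -0.61 and Map2k6, which activates p38, by -0.14, whereas the 14-3-3 gene Ywhaz and the PP2A catalytic gene Ppp2ca differed by 0.22 and 0.40. This list's median was -0.01 after quantile normalization and -0.07 after the loess trend was subtracted.

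**Figure D4:**
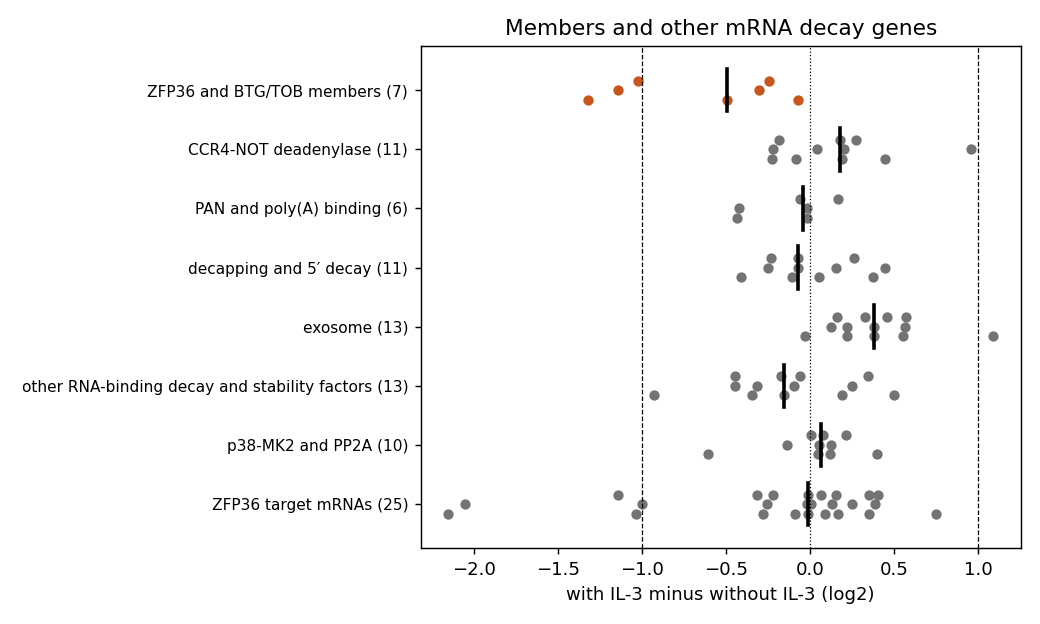
Each point is the difference of 1 gene with IL-3 minus without IL-3 (log2), black bars are medians and dashed lines mark 2-fold, with the number of measured genes in brackets. The 7 ZFP36 and BTG/TOB genes (orange) have a median of -0.50, the exosome list 0.38, and the ZFP36 target list has 4 genes below -1 with a median of -0.01.

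Of the mRNAs known as ZFP36 targets, 25 of 26 were measured. With IL-3, 4 of them were lower by 2-fold or more and 0 were higher by 2-fold or more, against 0.657% and 0.441% of all genes. The 4 lower genes, known from earlier results when the list was made, were the chemokine gene Ccl3 (-1.14 with IL-3, against 1.02 without IL-3), the MAP kinase phosphatase gene Dusp1 (0.09 with IL-3, against 2.14 without IL-3), the cytokine gene Il6 (0.02 with IL-3, against 1.17 without IL-3) and Fos (-0.05 with IL-3, against 0.98 without IL-3). A further gene, Plk3, named after its value was seen, differed by -0.998 and was counted under each of the array rescalings (median centring, quantile normalization and loess). The list median was -0.01, with 12 of 25 genes above 0, against 59.8% of all genes. The survival kinase gene Pim1 was highest, at 0.75, followed by Vegfa at 0.40, and Pim1 passed 2-fold when natural logs are assumed. All other measured genes of this list lay within 2-fold.

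Some markers of other blood cells were also lower with IL-3, in lists chosen with earlier results of these arrays known. Over all genes, 0.657% were lower with IL-3 by 2-fold or more, and 59.8% had a difference above 0. Of 10 mast cell and basophil markers, all measured, 3 were at least 2-fold lower, namely Fcer1a (-2.46), Cpa3 (-1.11) and Cma1 (-1.10), and 4 were above 0. Of 10 eosinophil and neutrophil granule genes, all measured, 4 were at least 2-fold lower, namely Ngp (-2.87), Prg2 (-2.76), Ear6 (-2.24) and Epx (-2.09), and 3 were above 0. Ear6 has near-identical relatives, so its value may mix genes. All 6 macrophage markers and the 11 of 12 pro-B and B lineage markers measured were within 2-fold, as nearly all genes were. When natural logs are assumed, the mast cell marker Ms4a2 and the macrophage marker Adgre1 were also at least 2-fold lower. Both were named after their values were seen. The part of these markers in the differences of the 7 genes was not tested. The values carry no level, so the labelled cell type could not be checked against its markers, nor could it be said which markers are absent.

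**Figure D5:**
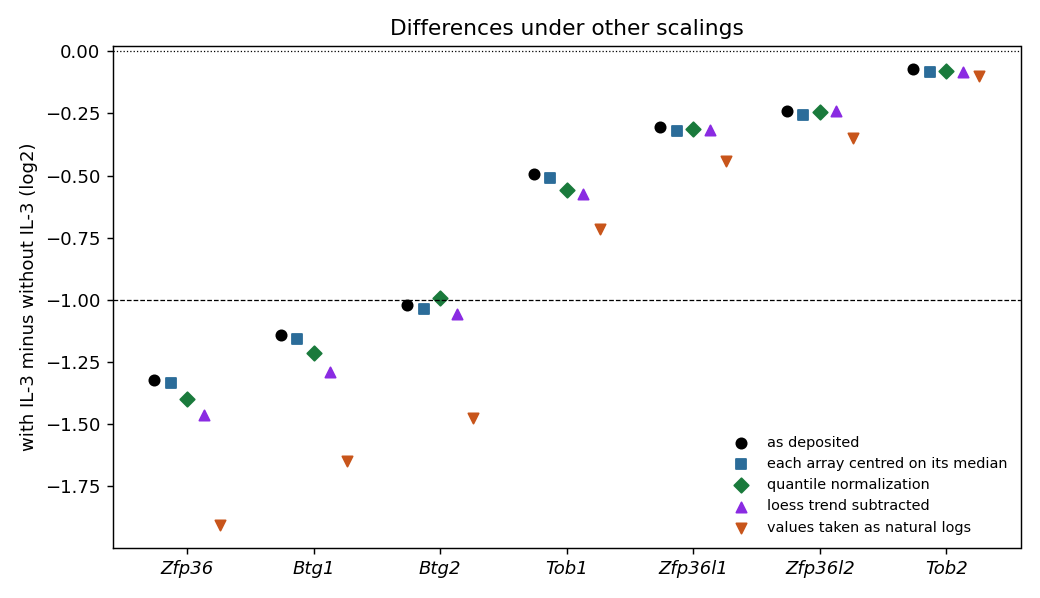
The difference of each gene with IL-3 minus without IL-3 (log2) is shown as deposited and under 4 other settings, with the dashed line at 2-fold lower. All points lie below 0, and Btg2 crosses the line after quantile normalization (-0.99).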

How the data were processed

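Imatinib-treated Ba/F3 cells expressing BCR-ABL were measured on 2 Affymetrix mouse Gene 1.0 ST arrays, 1 per condition, from biotin-labelled sense-strand cDNA per the labels' protocols. The authors deposited log values, taken here as log2, for 28815 probe sets. They were taken as relative to a baseline per probe set. Both arrays centre near 0 (medians -0.03 with IL-3 and -0.05 without IL-3), which alone would not show such a baseline. Some genes also had values of equal size and opposite sign on the arrays. The sources used here do not give the log base, normalization, direction or the arrays that set the baseline. Higher values were taken to mean more RNA.

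The platform annotation gave 1 gene symbol to 21780 probe sets, several to 1605 and none to 5430. Each of 19935 genes was represented by its probe set of highest mean. The members, gene lists and motifs were chosen with earlier results of these data known. Named are all members, list genes at least 2-fold apart (for markers, only these) or else the 2 highest and 2 lowest, and the 3 genes nearest to Zfp36 and Btg2. Genes named after their values were seen are marked. No test was possible with 1 array per condition, whose number limits precision. The counting was tested on simulated data. Alternatives were median centring, quantile normalization, a loess trend (span 0.3), other probe set rules, natural logs and a filter at the array median. Promoter windows covered 7 of the 8 members, without Zfp36l2. Python 3.11.15, pandas 2.3.3 and statsmodels 0.14.6 were used.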

Additional observations from a re-analysis of the deposited data

How the results depend on the processing

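The 7 genes were below 0 in all 7 alternatives. Only median centring, quantile normalization and the loess trend could have changed a sign, and the other alternatives could not. The count of genes at least 2-fold lower was 3 in each except quantile normalization, which gave 2 (Btg2 at -0.99), and the count at least 2-fold higher was 0 in all. The share of all genes at least 2-fold lower was 0.657% as deposited, 0.682% after median centring and 0.808% after quantile normalization. It was 1.03% after the loess trend, 1% under the filter at the array median and 1.88% as natural logs. The share at least 2-fold higher ran from 0.145% after the loess trend to 2.1% as natural logs. All 7 genes passed the filter at the array median, but Zfp36, Btg2 and Tob2 did so only through the array without IL-3, where they are high, so the count of 3 under this filter supports nothing. Reading the values as natural logs moved the median difference to -0.71, because it multiplies every value. Of the values for single genes, Zfp36 and Btg1 moved by more than the probe set SD of 0.14 when the loess trend was subtracted, to -1.47 and -1.29. As each gene has 1 probe set, the rules for choosing between probe sets could not change these values. Of the genes counted over the whole array, 40.2% were higher with IL-3 as deposited, 37.9% after median centring, 27.8% after quantile normalization, 12.4% after the loess trend and 52.8% as natural logs. With 1 array per condition, no replicate could be left out, and neither signal over background nor the spread between cultures is known.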
